A study of Mus musculus with 16 samples.

Results

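The 9 genes described here are those by which lipid-associated macrophages are usually recognised, Trem2, Tyrobp, Gpnmb, Apoe, Lpl, Fabp5, Cd9, Cd36 and Plin2, and they were taken by symbol from the 49568 genes counted in mouse flexor tendon. All 9 were counted in all 16 libraries and passed the filter on low counts in every comparison. The study asked how the tendon of MRL/MpJ (MRL) mice, an inbred strain that repairs several tissues with little scar, answers injury beside that of C57BL/6J (C57) mice, a common laboratory strain. Male mice of 9 to 11 weeks received a partial laceration (50%) of the deep digital flexor tendon of the third digit of a hind paw, and tendons were taken at 7 days post-injury (dpi) or left uninjured, with 4 libraries in each of the 4 groups (each strain with and without injury). The labels name no allele, transgene or drug in any group, and each library holds bulk RNA of tendon tissue at the injury site, or of uninjured tendon, with the sheath left on.

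Macrophages that clear dying cells and their membranes take in large amounts of fat and cholesterol. TREM2 is a surface receptor for lipids and lipoproteins that signals through the adaptor TYROBP (DAP12). CD36 imports fatty acids and oxidised lipoproteins, lipoprotein lipase (LPL) frees fatty acids from triglyceride, APOE carries cholesterol out of the cell, FABP5 binds fatty acids in the cytoplasm, and PLIN2 coats lipid droplets. GPNMB is a glycoprotein of endolysosomes, and CD9 is a tetraspanin of the plasma membrane and of secreted vesicles. Tendon holds few resident macrophages, and blood-derived ones enter it after a cut. None of these genes is restricted to macrophages: Lpl and Cd36 are also genes of fat, muscle and, for Cd36, capillary endothelium, Fabp5 and Cd9 are also genes of the epidermis, and tendon fibroblasts express Cd9 and Apoe.

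The total count on genes lay between 12552424 and 23741648 per library, and a floor of 3 counts equalled 0.128 to 0.237 CPM (the usual library-scaled count, on TMM-adjusted library sizes). Every value of the 9 genes was above this floor. The injured MRL libraries were the deepest, at 18524170 to 23741648 counts, against at most 17832908 in any library of the other groups. A pair of uninjured libraries went against their strain labels. Of 24 genes that every injured C57 library held at 1 CPM or more and every injured MRL library at no more than 1 count, the library labelled C57 uninjured 4 had at least 3 counts in 3, where the other uninjured C57 libraries had them in 16 to 21. Of 26 genes with the opposite pattern it had 25, where the others had 1 or 2. The library labelled MRL uninjured 4 had 16 of the first 24, where the other uninjured MRL libraries had 1 to 6, and 0 of the 26, where the others had 25 or 26. The labels were kept as given, and the injury changes of the members and the calls in each gene list are given with and without these libraries. The library labelled C57 uninjured 4 also held 9.78% of its counts in 12 epidermal genes (at most 0.1% in any other library), and the injured C57 library BI-181 held 6.45% in 12 skeletal muscle genes (0.201% in BI-183 and at most 0.00176% in the others). Per the methods RNA was taken from single tendons of 4 animals in each group, so that p-values measure the spread between animals.

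On the mouse genome (GRCm38, GENCODE release M21) the members are all protein-coding genes: Trem2 at chr17:48346401-48354147, Tyrobp at chr7:30413760-30417585, Gpnmb at chr6:49036546-49070929, Apoe at chr7:19696109-19699188, Lpl at chr8:68880491-68907448, Fabp5 at chr3:10012548-10016607, Cd9 at chr6:125460266-125494791, Cd36 at chr5:17781690-17888801 and Plin2 at chr4:86648386-86670060. Apoe, Cd9, Cd36 and Plin2 are on the minus strand. Reads were counted over whole genes without a stated strand setting, and Cd9 is the only member that another gene overlaps, with 159 and 127 counts summed over all libraries for the overlapping Gm28809 and Gm26728 against 746533 for Cd9. Promoter sequence from RefSeq (GRCm38.p6, 250 bases before and 50 from the start of transcription on) was at hand for 6 of the 9 members, not for Tyrobp, Lpl and Fabp5. The sequences of Apoe and Cd9, also at hand, are not printed. Shown are those of Trem2 and Cd36, which were higher in every injured than in every uninjured library of the same strain. Those of Gpnmb and Plin2 are shown too, which like Apoe and Cd9 were called in neither strain. In C57, Plin2 was also higher in every injured library. The windows are chr17:48346151-48346450 (plus strand), chr5:17835847-17836146 (minus strand, a start inside the annotated span of Cd36), chr6:49036268-49036567 (plus strand) and chr4:86670010-86670309 (minus strand). Capitals mark matches, on either strand, to an AP-1 site (TGANTCA), an E box (CACGTG), a purine-rich ETS core (GAGGAA), a nuclear receptor site (AGGTCA) or a TATA box (TATAAA).
Trem2: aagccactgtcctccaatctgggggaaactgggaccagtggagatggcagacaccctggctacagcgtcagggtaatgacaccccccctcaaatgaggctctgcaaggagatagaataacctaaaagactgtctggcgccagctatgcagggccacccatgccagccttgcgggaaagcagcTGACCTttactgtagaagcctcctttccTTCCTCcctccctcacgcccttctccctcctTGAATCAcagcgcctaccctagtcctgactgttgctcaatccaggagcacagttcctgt
Cd36: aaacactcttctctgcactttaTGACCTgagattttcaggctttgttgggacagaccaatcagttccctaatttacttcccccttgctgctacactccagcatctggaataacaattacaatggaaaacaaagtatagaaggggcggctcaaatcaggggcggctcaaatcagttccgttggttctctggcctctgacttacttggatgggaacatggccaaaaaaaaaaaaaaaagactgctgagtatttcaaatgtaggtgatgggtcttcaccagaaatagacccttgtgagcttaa
Gpnmb: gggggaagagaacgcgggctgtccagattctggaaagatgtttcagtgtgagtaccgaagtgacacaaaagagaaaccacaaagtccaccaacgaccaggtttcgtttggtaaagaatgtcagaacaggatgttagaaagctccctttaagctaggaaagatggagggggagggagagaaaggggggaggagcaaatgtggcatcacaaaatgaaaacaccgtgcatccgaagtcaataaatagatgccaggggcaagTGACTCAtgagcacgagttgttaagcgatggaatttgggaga
Plin2: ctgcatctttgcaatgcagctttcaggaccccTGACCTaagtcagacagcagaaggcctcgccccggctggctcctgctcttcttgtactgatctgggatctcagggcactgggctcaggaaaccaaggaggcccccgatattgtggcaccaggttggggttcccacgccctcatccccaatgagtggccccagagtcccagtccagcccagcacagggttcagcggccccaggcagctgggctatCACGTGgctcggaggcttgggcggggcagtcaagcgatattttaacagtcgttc

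With positions counted from the start of transcription as 1, the Trem2 window held a nuclear receptor site from -68, an ETS core from -40 and an AP-1 match from -9. The Gpnmb window held 1 AP-1 match, from position 9, the Cd36 window 1 receptor site, from -228, and the Plin2 window a receptor site from -218 and an E box from -4. Over all 32851 promoter windows of this length, AP-1 matches were found in 7.81%, E boxes in 7.15%, ETS cores in 28.3%, receptor sites (AGGTCA) in 16.3% and TATA boxes in 13.6%. These are matches of letters only. No binding was measured.

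After injury the adaptor gene Tyrobp and the lipid entry genes Lpl and Cd36 were called higher in both strains, Lpl with the largest change. In the main fits the receptor gene Trem2 and Fabp5 were called in MRL only. Trem2 had a like log2 change in both strains (2.17 in C57 and 2.06 in MRL). Apoe, Gpnmb, Cd9 and Plin2 were called in neither. Of 15 alternative fits in C57, Trem2 was called in 4, Cd36 in 7, Tyrobp in 9 and Lpl in 10. Fabp5 was called in 8 of 15 in MRL. In C57 tendon 3 of the 9 genes were called higher at 7 dpi (Tyrobp, Lpl and Cd36) and none lower, by the study's criteria of adjusted p below 0.05 with a log2 fold change beyond 1 in size (edgeR quasi-likelihood test, 8 libraries). Over all 14424 genes tested in that comparison 0.908% were called higher and 0.166% lower. In MRL tendon 5 of the 9 were called higher (Trem2, Tyrobp, Lpl, Fabp5 and Cd36) and none lower, where 5.25% of 14274 genes were called higher and 2.15% lower. The median log2 fold change of the 9 members was 0.85 in C57 and 1.75 in MRL, beside medians of -0.05 and -0.03 over all genes tested. By the libraries alone, 5 members in each strain had injured CPM that lay wholly above the uninjured (7.58% of all genes in C57 and 14.2% in MRL), and 1 member, Cd9 in MRL, lay wholly below (4.07% and 8.71%). Without the uninjured library numbered 4 it was again 5 members above in each strain (12% and 16.7% of all genes), with Cd9 below in both strains and Apoe below in MRL (9.89% and 12.5%). In bulk tendon a change in the number of cells of a type and a change in the RNA of each cell cannot be told apart.

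**Figure D1:**
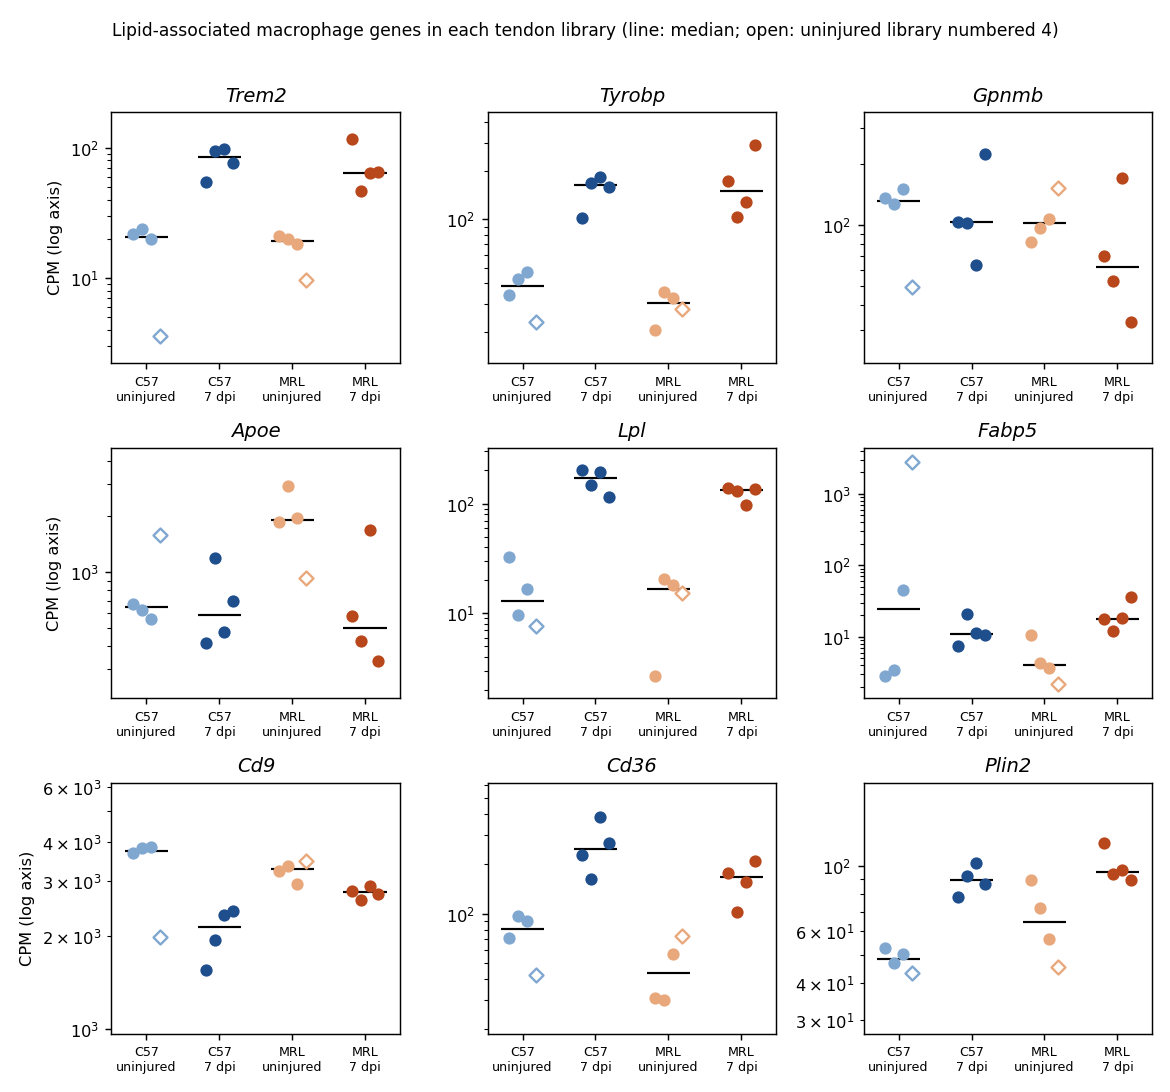
CPM of each of the 9 members on a log axis in the 4 groups, 1 point per library, with the group median as a line and the uninjured libraries numbered 4 as open diamonds. Trem2, Tyrobp, Lpl and Cd36 of the injured libraries lie above those of the uninjured libraries of the same strain, and Fabp5 in the library labelled C57 uninjured 4 lies at 2740 CPM, far above the rest.

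Without the library labelled C57 uninjured 4, 4 members were called higher in C57 tendon, Trem2 in addition to the same 3, where 3.5% of 14983 genes were called higher and 1.51% lower. Without the library labelled MRL uninjured 4, 4 members were called higher in MRL tendon (Trem2, Tyrobp, Lpl and Cd36, not Fabp5), where 4.68% of 14868 genes were called higher and 1.43% lower. The C57 calls rested on few libraries. Leaving out uninjured replicate 2 or 3, or the injured library BI-183, BI-184 or BI-185, left none of the 9 called, leaving out uninjured replicate 1 left Lpl, and leaving out BI-181 left Tyrobp and Lpl. Over these fits and that without uninjured 4 the adjusted p ranged from 0.00365 to 0.0688 for Tyrobp, from 0.00733 to 0.0851 for Lpl and from 0.0163 to 0.136 for Cd36, while their log2 fold changes stayed at 1.53 or more. In MRL tendon Trem2, Tyrobp, Lpl and Cd36 passed without any of the 8 libraries in turn. Fabp5 lost its call without uninjured replicate 2, 3 or 4 or without BI-270 or BI-275 (adjusted p up to 0.0963). Over all 15 alternative fits, which also changed the processing, its adjusted p in MRL reached 0.483.

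**Figure D2:**
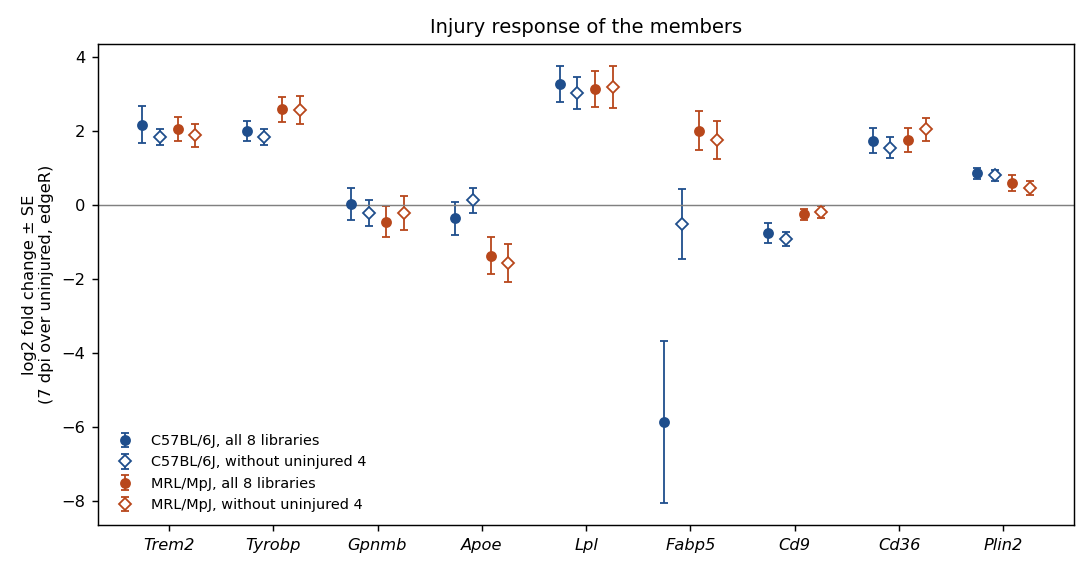
log2 fold change of injured over uninjured tendon with its standard error for each member in C57 (blue) and MRL (orange), from 8 libraries (filled circles) and without the uninjured library numbered 4 (open diamonds). Tyrobp, Lpl and Cd36 keep values of 1.55 or more in all 4 fits, and Fabp5 in C57 moves from -5.87 to -0.52.

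Trem2, the receptor, was counted at 21.6, 23.7 and 20 CPM in the uninjured C57 libraries 1 to 3 and at 3.58 in that labelled C57 uninjured 4, and at 54.7, 93.9, 97.8 and 76.0 CPM in the injured C57 libraries, which are given throughout in the order of their names (BI-181, BI-183, BI-184, then BI-185). The injured values were all above the uninjured ones. Their log2 fold change was 2.17 ± 0.50 (SE, 4 against 4), 4.52-fold, at an adjusted p of 0.0807 in the edgeR test. It was called in DESeq2 (2.23 ± 0.52, adjusted p = 0.00077) and in edgeR with all 16 libraries fitted together (2.22 ± 0.45, adjusted p = 0.0168). With the library labelled C57 uninjured 4, the lowest of its group, left out, the change was 1.84 ± 0.22 at an adjusted p of 0.00342. In uninjured MRL tendon Trem2 stood at 20.9, 20, 18.2 and 9.71 CPM, the last in the library labelled MRL uninjured 4, and in injured MRL tendon at 116, 46.2, 63.6 and 64.5 CPM (in the order BI-270, BI-272, BI-274, then BI-275). Here Trem2 rose 4.18-fold (log2 2.06 ± 0.32, adjusted p = 0.00434), and by 1.88 ± 0.31 on the log2 scale without the library labelled MRL uninjured 4.

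Tyrobp, the adaptor that TREM2 shares with other myeloid and lymphoid receptors, stood at 33.8, 42.9, 47.1 and 23.0 CPM in uninjured and at 102, 168, 184 and 158 CPM in injured C57 tendon. It rose 4.02-fold (log2 2.01 ± 0.27, adjusted p = 0.0152). In MRL tendon the values were 20.5, 35.2, 32.5 and 27.6 CPM before and 172, 104, 129 and 288 CPM after injury, a rise of 5.98-fold (log2 2.58 ± 0.33, adjusted p = 0.00184). The highest library, BI-275, was not the one that led for Trem2, which was BI-270. Without the uninjured library numbered 4 the log2 rise of Tyrobp was 1.84 ± 0.22 in C57 and 2.56 ± 0.38 in MRL.

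Lpl had the largest change among the members that passed. In C57 tendon it went from 32.5, 9.62, 16.5 and 7.61 CPM to 201, 147, 195 and 114 CPM, 9.62-fold (log2 3.27 ± 0.48, adjusted p = 0.0216). The MRL libraries read 2.69, 20.7, 18.1 and 15.3 CPM uninjured and 139, 131, 96.0 and 137 CPM injured, 8.79-fold (log2 3.14 ± 0.48, adjusted p = 0.00409). No injured library of either strain came within the range of the uninjured ones, and without the uninjured library numbered 4 the log2 rise was 3.03 ± 0.43 in C57 and 3.19 ± 0.57 in MRL.

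Cd36 read 71.4, 97.3, 89.8 and 42.6 CPM in uninjured and 228, 162, 386 and 267 CPM in injured C57 tendon, 3.35-fold higher (log2 1.74 ± 0.33, adjusted p = 0.0484). In MRL tendon it went from 30.7, 29.9, 56.9 and 72.7 CPM to 177, 102, 156 and 207 CPM, also 3.35-fold (log2 1.75 ± 0.33, adjusted p = 0.00921). Its log2 rise was 1.55 ± 0.28 in C57 and 2.04 ± 0.31 in MRL without the uninjured library numbered 4. Of markers of other cell types that express Lpl and Cd36, the endothelial sum was higher in every injured than in every uninjured C57 library. The adipocyte sum of BI-184 and the muscle sums of BI-184 and BI-185 lay within the uninjured range. None of the 8 endothelial, 7 adipocyte and 6 muscle genes tested in C57 was called. The endothelial gene Emcn, which encodes endomucin, was called higher without the library labelled C57 uninjured 4 (log2 1.67 ± 0.33, adjusted p = 0.0212) and no adipocyte or muscle gene was. The summed CPM of 8 endothelial genes went from between 15.8 and 95.3 to between 99.5 and 199, that of 10 adipocyte genes from between 23.6 and 121 to between 34 and 261, and that of 12 muscle genes reached 65500 in BI-181 and 1880 in BI-183 against at most 20.4 in the other C57 libraries. In the order of the injured C57 libraries the endothelial sum was 199, 155, 99.5 and 146 CPM, the adipocyte sum 261, 212, 34 and 228 CPM and the muscle sum 65500, 1880, 8.06 and 9.11 CPM. Their part in the C57 rises was not tested. In MRL tendon the endothelial sum was between 2.43 and 69.9 CPM uninjured and between 0.935 and 26.2 injured, and the adipocyte sum between 13.7 and 102 and between 11.4 and 187. In the order of the injured MRL libraries the endothelial sum was 0.935, 16.6, 26.2 and 24 CPM, the adipocyte sum 11.4, 187, 25.3 and 20.9 CPM and the muscle sum 10, 6.2, 7.39 and 13.5 CPM. The part of these cells in the MRL rises was not tested either.

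Apoe, the apolipoprotein, did not rise with the receptor genes. It was counted at 674, 625, 558 and 1580 CPM in uninjured and 416, 1200, 479 and 700 CPM in injured C57 tendon, and these ranges overlapped (log2 -0.36 ± 0.44, adjusted p = 0.755). Without the library labelled C57 uninjured 4, which had the highest value, the difference was 0.12 ± 0.33. In MRL tendon Apoe read 1870, 2930, 1970 and 928 CPM before and 581, 426, 1680 and 334 CPM after injury. All injured MRL libraries but BI-274 were below every uninjured one, and the difference, -1.37 ± 0.50, did not pass in edgeR (adjusted p = 0.103). It passed as lower in DESeq2 (-1.38 ± 0.48, adjusted p = 0.0304) and in edgeR without BI-274 (-2.11, adjusted p = 0.00827), and not without the library labelled MRL uninjured 4 (-1.58 ± 0.51, adjusted p = 0.0922).

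Plin2, the droplet coat protein, differed little between libraries of a C57 group (48.2 ± 4.17 CPM uninjured and 89.9 ± 10.1 injured, SD, n = 4). It stood at 52.8, 46.7, 50.2 and 43.2 CPM in uninjured and 78.2, 92.2, 102 and 86.8 CPM in injured C57 tendon, without overlap. The rise was 1.80-fold (log2 0.85 ± 0.15) and passed the adjusted p (0.0438) but not the fold criterion. In MRL tendon the uninjured libraries ranged more widely (89.4, 72.2, 56.7 and 45.5 CPM) and touched the injured ones (119, 94.0, 96.9 and 89.3 CPM), and the log2 change of 0.59 ± 0.21 had an adjusted p of 0.0979. The Plin2 change without the uninjured library numbered 4 was 0.80 ± 0.15 in C57 (adjusted p = 0.0175) and 0.46 ± 0.19 in MRL (adjusted p = 0.18).

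Fabp5 depended on single libraries. The uninjured C57 libraries read 2.87, 3.42, 45.6 and 2740 CPM and the injured ones 7.47, 20.9, 11.3 and 10.5 CPM. The values of 45.6 and 2740 CPM came from the libraries with the largest epidermal sums of that group, 997 and 113000 CPM against 178 and 158 in the other 2. FABP5 is also the epidermal fatty acid-binding protein, and the part of epidermal RNA in these values was not tested. The C57 log2 fold change was -5.87 ± 2.19 with all libraries (adjusted p = 0.264) and -0.52 ± 0.95 without the library labelled C57 uninjured 4 (adjusted p = 0.804). In MRL tendon Fabp5 went from 10.6, 4.38, 3.62 and 2.21 CPM to 17.6, 11.9, 18.1 and 36.5 CPM, 4.02-fold (log2 2.01 ± 0.52, adjusted p = 0.0348). The epidermal sum was 57.1 to 673 CPM in the uninjured and 44.0 to 179 CPM in the injured MRL libraries, and its part in the MRL values was not tested. Without the library labelled MRL uninjured 4 the Fabp5 change was 1.76 ± 0.51 and did not pass (adjusted p = 0.0703).

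**Figure D3:**
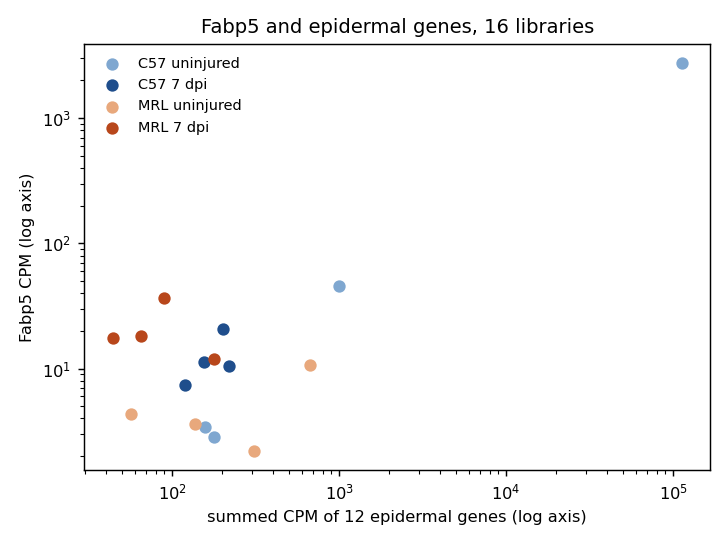
Fabp5 CPM against the summed CPM of 12 epidermal genes, both on log axes, 1 point per library and colours for the 4 groups. The library labelled C57 uninjured 4 stands alone at 2740 and 113000 CPM, and the 4 injured MRL libraries hold 11.9 to 36.5 CPM of Fabp5 at epidermal sums of 44.0 to 179 CPM.

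Gpnmb had no common direction. It was at 136, 127, 150 and 49.4 CPM in uninjured and 103, 102, 63.3 and 224 CPM in injured C57 tendon (log2 0.03 ± 0.43, adjusted p = 0.981), and at 82.4, 96.3, 107 and 151 CPM in uninjured and 70.2, 52.9, 171 and 33.1 CPM in injured MRL tendon (log2 -0.45 ± 0.42, adjusted p = 0.526). In each strain 1 injured library, BI-185 in C57 and BI-274 in MRL, was above all uninjured ones of its strain, and in MRL the other injured libraries were below all of them. Without BI-274, Gpnmb was called lower in MRL (-1.08, adjusted p = 0.0418). Without the uninjured library numbered 4 its log2 change was -0.22 ± 0.36 in C57 and -0.22 ± 0.46 in MRL (adjusted p = 0.783 and 0.81).

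Cd9, the most counted of the 9, was lower after injury without passing the criteria. The C57 libraries read 3670, 3820, 3850 and 1980 CPM uninjured and 1550, 1940, 2330 and 2400 CPM injured (log2 -0.75 ± 0.27, adjusted p = 0.244). Only the library labelled C57 uninjured 4 overlapped the injured range, and without it the difference was -0.93 ± 0.19 at an adjusted p of 0.022, still short of the fold criterion. In MRL tendon all 4 injured libraries (2780, 2600, 2890 and 2720 CPM) lay below the uninjured ones (3230, 3330, 2930 and 3460 CPM), by a log2 difference of -0.25 ± 0.15 (adjusted p = 0.312), which was -0.20 ± 0.16 without the library labelled MRL uninjured 4.

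The injured tendons of both strains were compared directly, 4 libraries against 4. None of the 9 was called in injured MRL against injured C57 tendon (edgeR), where 1.55% of 14626 genes were called higher and 1.88% lower, 3103 genes had an unadjusted p under 0.05, and DESeq2 called 1473 genes and none of the 9. Cd36 was the nearest, at 160 ± 44.1 CPM (SD, n = 4) in MRL and 261 ± 94.2 in C57 (log2 -0.73, 95% interval -1.38 to -0.08, adjusted p = 0.188). The 95% interval of the log2 difference ran from -0.82 to 0.46 for Trem2, from -0.55 to 0.85 for Tyrobp, from -0.92 to 0.07 for Lpl and from -0.23 to 0.47 for Plin2. It was wider for Apoe (-1.07 to 1.23), Gpnmb (-1.77 to 0.51) and Fabp5 (-0.21 to 1.64). Cd9 was the only member whose injured groups did not overlap, at 2750 ± 124 CPM in MRL and 2050 ± 393 in C57 (log2 0.39 ± 0.20, adjusted p = 0.29). Over all genes tested the injured MRL libraries lay wholly above the injured C57 ones for 8.57% and wholly below for 7.49%, so that 1 of 9 members is near that share.

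The difference between the strains in the injury change itself was tested over all 16 libraries. None of the 9 was called, and neither was any of the 15947 genes tested (0% called, smallest adjusted p 0.293, 1939 genes with an unadjusted p under 0.05, 221 genes called by DESeq2, none of them a member, with no adjusted p for Fabp5). The interaction was -0.16 ± 0.61 for Trem2, 0.51 ± 0.44 for Tyrobp, -0.18 ± 0.69 for Lpl and -0.05 ± 0.49 for Cd36 on the log2 scale. Trem2 passed the test in MRL and not in C57, and its change was not shown to differ between them. The largest was Fabp5, 7.80 ± 2.34 with an adjusted p of 0.333, which was 2.47 ± 1.10 without the library labelled C57 uninjured 4. For Apoe the interaction was -1.07 ± 0.72, and -1.77 ± 0.68 without both uninjured libraries numbered 4 (adjusted p = 0.585 and 0.383).

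In uninjured tendon none of the 9 was called between the strains, and neither was any of 14055 genes (0% higher and 0% lower, 1106 genes with an unadjusted p under 0.05, 103 genes and no member called by DESeq2). Apoe was at 1920 ± 817 CPM in MRL and 859 ± 482 in C57 (log2 1.13 ± 0.43, adjusted p = 0.621). This comparison rests on both libraries that went against their strain labels. Without them, 3 against 3 libraries remained, 2.07% of 14274 genes were called higher in MRL and 1.41% lower, and 2 of the 9 members passed. Apoe stood at 1870, 2930 and 1970 CPM in MRL against 674, 625 and 558 CPM in C57 (log2 1.85 ± 0.17, adjusted p = 0.000198), and Cd36 at 30.7, 29.9 and 56.9 CPM in MRL against 71.4, 97.3 and 89.8 CPM in C57 (log2 -1.15 ± 0.25, adjusted p = 0.0254). Gpnmb passed the adjusted p but not the fold criterion in this fit (log2 -0.55 ± 0.13, adjusted p = 0.041). In the libraries left out Apoe was at 1580 CPM under the C57 label and at 928 CPM under the MRL label, nearer to the other strain's values in both. Not all members were so. In the library labelled C57 uninjured 4, Trem2 (3.58 CPM), Gpnmb (49.4 CPM) and Cd9 (1980 CPM) were below every other uninjured library of both strains.

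Of 16 genes that mark macrophages as a class, 7 were called higher in C57 and 9 in MRL tendon after injury and none lower, with median log2 fold changes of 1.91 and 1.29 (-0.05 and -0.03 over all genes). The C57 count was 13 of 16 without the library labelled C57 uninjured 4, and without that labelled MRL uninjured 4 the MRL count was 8 of 16, Adgre1, the F4/80 antigen, being the gene no longer called. The count was thus the higher one in MRL with all libraries and in C57 without these. This difference in counts was not tested. Between injured tendons 4 of the 16 genes were called lower in MRL and 0 higher, beside 1.88% and 1.55% of all genes tested. Their median log2 difference was -0.71 (-0.06 over all genes). In the interaction over all 16 libraries 0 of the 16 genes were called, with a median of -0.70 (-0.03 over all genes). Lyz2, the macrophage lysozyme, rose by 2.61 and 2.38 on the log2 scale (adjusted p = 0.0121 and 0.0012), and Cd68, a lysosomal glycoprotein, by 2.56 and 1.83 (adjusted p = 0.0121 and 0.00331). In MRL tendon Mertk, a receptor for dying cells, had a log2 difference of -0.88 ± 0.49 and Cd163, the haemoglobin scavenger receptor, of 0.34 ± 0.66, and neither passed (adjusted p = 0.273 and 0.779). The summed CPM of the 16 genes went from between 837 and 1890 to between 5070 and 8970 in C57, and from between 1040 and 1710 to between 3840 and 6990 in MRL.

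The members were also set against this sum, as a description with no test. Lyz2 alone made up much of it, with a median of 48.9% in uninjured and 62.6% in injured C57, and of 57.8% and 74% in MRL, so that each share is also given of the sum of the other 15 genes. Lpl went up relative to both sums, in C57 from a median of 0.917% to 1.94% and in MRL from 1.12% to 2.07% of all 16 genes, and from 1.95% to 5.37% and from 2.36% to 9.28% of the 15. The medians of Gpnmb, Apoe, Cd9 and Plin2 went down relative to both, Gpnmb in C57 from 7.47% to 1.61% of the 16 and from 14.5% to 4.31% of the 15, and in MRL from 7.22% to 1.19% and from 17.1% to 4.60%. For Trem2 the picture differed between the sums. Its median was 1.18% of the 16 genes in uninjured and 1.08% in injured C57, with MRL ranges of 0.716% to 2.02% and 1.01% to 1.66%, but of the 15 its medians were 2.27% and 2.91% in C57 and 2.70% and 5.08% in MRL. Tyrobp was at 2.46% and 2.03% of the 16 in C57 and at 2.00% and 2.68% in MRL, and at 4.72% and 5.35%, and 4.68% and 10.4%, of the 15. Cd36 had medians of 5.07% and 3.88% of the 16 in C57 and of 3.20% and 2.94% in MRL, and of 9.77% and 10.2%, and 7.59% and 11.3%, of the 15. Fabp5 had a median of 1.37% of the 16 in uninjured (0.172% to 327%) and 0.142% in injured C57, and of 0.238% and 0.342% in MRL, and the same directions of the 15. Cd9 alone was counted at 202% to 237% of the sum of all 16 macrophage genes in uninjured C57 and at 177% to 311% in uninjured MRL tendon, and at 22.3% to 31.0% and 39.8% to 67.5% after injury.

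**Figure D4:**
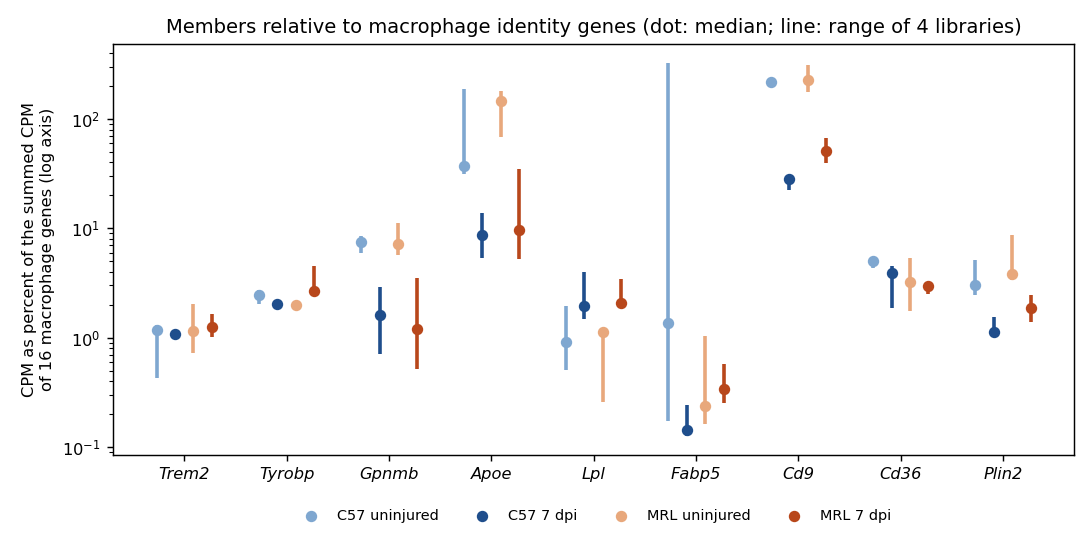
CPM of each member as a percentage of the summed CPM of 16 macrophage genes (log axis), with the median as a dot and the range of the 4 libraries as a line, in the 4 groups. Trem2 lies between 0.427% and 2.02% in all groups of a sum in which Lyz2 takes 45.5% to 80.7%, Gpnmb and Cd9 are lower in both injured groups than in the uninjured ones, and the medians of Lpl are higher.

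The genes that share the lipid-associated programme with the members (14 genes, such as Spp1, Lgals3 and the cathepsins) were called in MRL only with all libraries. Of all genes tested, 0.908% were called higher in C57 and 5.25% in MRL, shares that hold also beside the lists below. In C57 tendon none of the 13 tested was called, and in MRL tendon 3 were called higher and none lower, with median log2 fold changes of 0.40 and 0.44. For these genes the CPM given are the medians of the uninjured and of the injured libraries. The 3 were Clec7a, the beta-glucan receptor dectin-1 (1.07 to 31.0 CPM, log2 4.72 ± 0.88, adjusted p = 0.00912), Itgax, the integrin CD11c (at most 0.0718 CPM in every uninjured and 1.79 to 20.1 CPM in every injured MRL library, adjusted p = 0.00285), and Cd63, a lysosomal tetraspanin (572 to 1110 CPM, log2 1.06 ± 0.22, adjusted p = 0.0152). Lipa, lysosomal acid lipase, was at 60.2 and 116 CPM in C57 and 87 and 137 CPM in MRL without passing (adjusted p = 0.056 and 0.0826). Without the library labelled C57 uninjured 4, Clec7a was called in C57 as well, and without that labelled MRL uninjured 4, Spp1, Itgax, Clec7a and Atp6v0d2 were called in MRL and Cd63 was not (log2 0.99 ± 0.24).

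Of the genes of TREM2 signalling and its receptor family, 0 of 10 tested were called in C57 and 2 of 11 were called higher in MRL, while all 10 and all 11 had a positive log2 fold change with all libraries (46.4% and 48.1% of all genes tested). Adam17, the sheddase of TREM2, was at -0.04 in C57 without the library labelled C57 uninjured 4. Clec5a, another TYROBP-coupled receptor, went from a median of 14.9 to 52.0 CPM in MRL (log2 2.13 ± 0.38, adjusted p = 0.00771), and Hcst, the adaptor DAP10, from 1.11 to 4.90 CPM (log2 2.27 ± 0.63, adjusted p = 0.0444). The kinase gene Syk, downstream of TYROBP, stood at 11.6 and 25.1 CPM in C57 and at 8.91 and 17.2 CPM in MRL (adjusted p = 0.369 and 0.0907), and the exchange factor gene Vav1 at 5 and 22.3 CPM and at 5.91 and 13.8 CPM (adjusted p = 0.284 and 0.0515). Trem3, Treml1, Treml2 and Treml4 were too low to be tested. Without the uninjured library numbered 4 the calls were 3 of 11 in each strain (Inpp5d, Vav1 and Clec5a in C57, Plcg2, Clec5a and Trem1 in MRL).

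Receptors that take up modified lipoproteins beside Cd36 were called higher in MRL tendon in 3 of 9 and in C57 tendon in 0 of 8 (medians 0.92 and 1.21). Msr1, the class A scavenger receptor, went from 13.5 to 137 CPM in MRL (log2 3.24 ± 0.32, adjusted p = 0.000876) and from 15.4 to 78.5 CPM in C57 (log2 2.55 ± 0.54, adjusted p = 0.0619). Cxcl16, a chemokine that also binds oxidised lipoprotein, rose by 1.91 ± 0.37 and Vldlr, the very low density lipoprotein receptor, by 1.56 ± 0.44 in MRL (adjusted p = 0.011 and 0.0468). Scarb1, the receptor for high density lipoprotein, was at 22.3 and 46.9 CPM there without passing (adjusted p = 0.0726). Without the library labelled C57 uninjured 4, Msr1, Stab1 and Cxcl16 were called in C57. Without that labelled MRL uninjured 4 the calls were Msr1, Cxcl16 and Olr1, a receptor for oxidised lipoprotein, and Vldlr did not pass (adjusted p = 0.103).

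Among partners of lipoprotein lipase 1 of 6 was called higher in C57 and 3 of 8 in MRL (medians 0.86 and 0.24). Pltp, the phospholipid transfer protein, passed in both strains (91.0 to 255 CPM in C57, log2 1.59 ± 0.25, adjusted p = 0.028, and 63.0 to 137 CPM in MRL, log2 1.17 ± 0.29, adjusted p = 0.0299). Angptl4, a secreted inhibitor of LPL, was called in MRL (3.88 to 62.3 CPM, log2 3.83 ± 0.86, adjusted p = 0.0225) and read 3.72 and 11.6 CPM in C57 (adjusted p = 0.161). Lipg, endothelial lipase, was at 0 in all 4 uninjured and between 0.631 and 8.48 CPM in the injured MRL libraries (adjusted p = 0.0191). Gpihbp1, which anchors LPL on capillaries, was at most 0.496 CPM in every MRL library and went from a median of 0.393 to 6.16 CPM in C57 (adjusted p = 0.24). Angptl4 (log2 3.70, adjusted p = 0.051) and Pltp (log2 1.16, adjusted p = 0.0718) lost their MRL calls with like fold changes without the library labelled MRL uninjured 4, where only Lipg was left, and Pltp was the only call in C57 without the library labelled C57 uninjured 4.

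None of 14 perilipin and droplet genes in C57 and none of 12 in MRL was called (medians -0.05 and -0.37), Soat1, which esterifies cholesterol, being the nearest (27.5 to 46.3 CPM in MRL, log2 0.82 ± 0.24, adjusted p = 0.0523). Of 9 cholesterol efflux and LXR genes none was called in C57, while in MRL Abcg1, a cholesterol exporter, was higher (2.83 to 12.6 CPM, log2 2.17 ± 0.38, adjusted p = 0.00701) and Mylip, a ligase that degrades lipoprotein receptors, lower (63.1 to 28.2 CPM, log2 -1.17 ± 0.31, adjusted p = 0.0363). Abcg1 was called in C57 as well without the library labelled C57 uninjured 4 (log2 1.82 ± 0.39, adjusted p = 0.0296), and without that labelled MRL uninjured 4 Mylip lost its call (log2 -1.16 ± 0.35, adjusted p = 0.0768). Of the PPAR and MiT/TFE transcription factors and Maf only Maf was called, in MRL (13.5 to 26.8 CPM, log2 1.06 ± 0.26, adjusted p = 0.0265). Maf was called higher in C57 too without the library labelled C57 uninjured 4 (log2 1.41 ± 0.24, adjusted p = 0.0134). Pparg was at 7.44 and 3.12 CPM in MRL (adjusted p = 0.121) and Mitf at 27.1 and 21.4 CPM (adjusted p = 0.198). Among tetraspanins other than Cd9, Cd53, a leukocyte gene, was called higher in both strains (log2 1.68 ± 0.27 and 2.47 ± 0.43, adjusted p = 0.0279 and 0.00674) and Tspan15 lower in MRL (log2 -1.14 ± 0.32, adjusted p = 0.0484), of 10 tested in each. Cd53 was the only one called in either strain without the uninjured library numbered 4, and Tspan15 did not pass in MRL (adjusted p = 0.122). Of the other fatty acid-binding protein genes only Fabp3 and Fabp4 were high enough to be tested in C57, and neither passed (adjusted p = 0.207 and 0.261). Without the uninjured library numbered 4 no perilipin, droplet or other fatty acid-binding protein gene was called in either strain.

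Several members have other uses in other cells, and markers of those cells were followed. Osteoclasts express Gpnmb and Trem2, and of 4 osteoclast genes tested 3 were called higher in MRL (Ctsk, Dcstamp and Acp5) and none in C57. The summed CPM of the 7 genes of the list went from between 160 and 207 to between 429 and 655 in MRL, and from between 96.3 and 208 to between 239 and 636 in C57, without overlap in either. This sum was mostly Ctsk, cathepsin K, which fibroblasts also express (a median of 93.4% to 98.6% of it in the 4 groups), and the other 6 genes together were at 0.839 to 35.6 and 9.31 to 18.7 CPM in C57 and at 2.21 to 4.34 and 4.85 to 97.5 CPM in MRL. Ctsk was called in C57 without the library labelled C57 uninjured 4 (log2 1.27 ± 0.29, adjusted p = 0.0369), and without that labelled MRL uninjured 4 Acp5 lost its call (adjusted p = 0.056). Melanocytes express Gpnmb, and the sum of 5 melanocyte genes was at most 3.77 CPM except for 31.4 CPM in the library labelled C57 uninjured 4, in which Gpnmb was the lowest of its group. Their part in the members' values was not tested. The summed CPM of 8 tendon genes lay between 16700 and 36100 in the C57 libraries and between 24300 and 74400 in the MRL libraries, and that of 7 Schwann cell genes between 456 and 1590 in uninjured and 898 and 2150 in injured C57 tendon. In MRL tendon the Schwann cell sum was between 1150 and 1320 CPM uninjured and between 513 and 969 injured, lower in every injured library, although none of the 4 genes of the list tested there was called. Of these further lists, the calls were 1 tendon gene (Thbs4) and 1 muscle gene (Tnni2), both higher in MRL, and without the library labelled MRL uninjured 4 only Thbs4 was called.

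Genes whose log2 CPM followed that of a member most closely over the 16 libraries were looked up among 15938 tested genes, as a description. The points share library and depth. Trem2 was most like Rac2, a GTPase of blood cells (Pearson r = 0.963), the Fc receptor gene Fcgr1 (0.952), Evi2a (0.952), Impdh1 and Tmem106a (both 0.948). Lpl was most like Mir142hg and Tnip3 (both 0.935), Itgb2, the leukocyte integrin chain, and Lcp1, a leukocyte actin-bundling protein (both 0.932), and Gusb (0.929). Plin2 was most like Hacd4 (0.950), Ptafr (0.933), Oaf (0.917) and Rgs19 (0.899). Gpnmb, by contrast, had no gene above 0.872, and its nearest were Rnf130 (0.872), Snhg14 (0.862), Smpdl3a (0.854), Tspyl2 (0.849) and Zer1 (0.840).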

How the data were processed

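RNA-seq had been performed on 16 libraries of mouse flexor tendon. Per the methods, single-end 100-nt reads went through Trimmomatic 0.36 and then STAR 2.5.2b on GRCm38.p5; the submitters' processing notes list Subread 1.5.0p3, featureCounts and DESeq2 1.14.1. The gene annotation and strand setting are not given in the sources used here. The sources differ on the libraries: the labels name the TruSeq kit on poly(A) RNA, the methods SMARTer pre-amplification followed by NexteraXT. Which applies is not settled here. The authors deposited whole-number counts per gene, without normalization.

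From these counts, edgeR 4.0.16 in R 4.3.3 gave the main tests (filterByExpr, TMM, robust quasi-likelihood test, Benjamini-Hochberg over all genes tested), each strain in a fit of its own, as the study did with DESeq2. The standard error is the log2 fold change over the root of its F statistic, and the 95% intervals use the t quantile at the test's degrees of freedom. CPM used TMM-adjusted library sizes over all 16 libraries, and log2 CPM a prior count of 2. Depth (12552424 to 23741648 counts) sets a floor of 3 counts, which covers counting error only. The test was checked on simulated data. Alternatives were DESeq2 1.42.0, other factors and filters, 1 fit of 16 libraries, and libraries left out. The fits without both uninjured libraries numbered 4, the list counts without them and the shares of the macrophage sum (with and without Lyz2) were chosen after seeing the data.

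The members and gene lists were chosen with earlier results of these data known. Named were all members, from each list up to 4 genes with the smallest adjusted p over both injury comparisons, and up to 5 genes among those most correlated with each of 4 members (Trem2, Gpnmb, Lpl and Plin2), of which 1 is not reported here. Other list genes are named because they were called without a doubtful library or could not be tested, and were chosen after their values were seen.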

Additional observations from a re-analysis of the deposited data

Results flagged for a closer look

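Each member in each group of 4 libraries was searched for a library whose log2 CPM (prior count of 2) was far from the other 3, by Dixon's criterion at 95%, which chance meets in about 1 of 20 groups. Of the 36 groups, 5 met it, also with a prior count of 0.5. The library labelled C57 uninjured 4 was low for Trem2 (1.89, the others 4.33 to 4.57), for Gpnmb (5.63, the others 7.00 to 7.23) and for Cd9 (10.95, the others 11.84 to 11.91). It is the library that went against its strain label and held 9.78% of its counts in epidermal genes, and the part of either in these values was not tested. Lpl was low in the uninjured MRL library 1 (1.49, the others 3.95 to 4.38) and in the injured MRL library BI-274 (6.59, the others 7.03 to 7.12). In BI-274 Lpl was still above every uninjured MRL library.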

How the results depend on the processing

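Of 762 refits of a member in a comparison, 682 kept its direction and its side of the criteria, 26 lost a call, 11 gained one and 43 changed sign. Values that changed sign were not called in the main fit. All 16 libraries were fitted together, DESeq2, upper-quartile factors, total counts and other filters replaced the main choices, and libraries were left out, and the cause of the changes was not tested.

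In C57 injury 155 genes were called, against 909 in DESeq2, 367 with all 16 libraries fitted together, and 867 without the library labelled C57 uninjured 4 and BI-181, where Gpnmb was -0.10 and Apoe 0.35 on the log2 scale. Leaving out 1 library at a time gave 10 to 750 genes and 0 to 4 members, with Gpnmb from -0.39 to 0.29 and Apoe from -0.72 to 0.12; the count of 750 came without the library labelled C57 uninjured 4. In MRL injury 1057 genes were called, against 1808 in DESeq2 and 689 to 1260 with 1 library left out.

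For the interaction DESeq2 called 221 genes and edgeR 0. Lpl was 0.22 and Cd36 0.37 without the libraries labelled C57 uninjured 4 and MRL uninjured 4 and BI-181, and 0.11 and 0.43 without the first 2 of these. With 1 library left out Lpl ran from -0.73 to 0.06, Trem2 from -0.48 to 0.17 and Cd36 from -0.22 to 0.23.

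Between injured tendons 502 genes were called, against 1473 in DESeq2, 227 with all 16 libraries fitted together and 231 to 481 with 1 library left out. Apoe was -0.06 and Plin2 -0.02 with total counts, and Apoe -0.09 without BI-181. With 1 library left out Apoe ran from -0.62 to 0.47, Trem2 from -0.44 to 0.03 and Tyrobp from -0.17 to 0.38.

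Between uninjured tendons 0 genes were called, against 103 in DESeq2, 1 with no filter, 0 to 3 with 1 library left out, and 497 with 2 members without both libraries numbered 4 (the same fit as without all doubtful libraries). Trem2 was 0.01 with no filter and 0.00 with all 16 libraries fitted together. With 1 library left out Trem2 ran from -0.34 to 0.19, Gpnmb from -0.34 to 0.06, Lpl from -0.47 to 0.33 and Cd9 from -0.23 to 0.03. With the replicate number as a block 0 genes and 0 members were called and Trem2 was 0.21. Same-numbered libraries of the strains did not deviate together (correlations of -0.19, -0.03, -0.10 and -0.24), so the numbers do not pair them.

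The uninjured groups hold 4 libraries of which 1 each is in doubt, and Trem2, Lpl and Fabp5 were at a few CPM in some uninjured libraries, all above the floor of 3 counts.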
